A study of Mus musculus with 10 samples.

Results

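Car9 and Hilpda are genes that many cells switch on when oxygen is short, and their rows were followed through RNA sequencing of whole mouse colon in DSS colitis. They are 2 of the 55416 rows of the deposited count tables, taken by gene identifier and named by the GENCODE M21 annotation of the mm10 build. The pair was chosen by its counts in these same libraries, with the lower levels in the knockout already known, so the difference between genotypes is given below as a description. Whether it passes a threshold is stated for each gene, but is no support for a difference.

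The study compared 5 Vista knockout and 5 wild-type (WT) mouse libraries. The gene Vsir encodes Vista, a checkpoint receptor and ligand that restrains immune cells. All mice had drunk 2% dextran sulfate sodium (DSS), which injures the colonic epithelium, for 7 days, so a colon without DSS was not part of the comparison. The labels called the genotype of knockout libraries 1 to 3 VISTA knockdown and that of libraries 4 and 5 Vista-/-, while the design text describes Vista-/- animals, and all 5 were treated as 1 group. A first table held libraries 1 to 3 of each genotype and a second table libraries 4 and 5. The sources used here do not give strain, sex or age, nor the way Vista was removed. The design text speaks of 3 biological replicates a group, and nothing ties each of the 10 libraries to an animal of its own. The spread behind each p-value is that between libraries, which may in part be technical.

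Library totals ran from 3691322 to 4071238 counts. In most of the genome the counts did not follow gene names: of 530 universally used genes outside 3 regions, such as ribosomal, proteasome and respiratory chain genes, 24.5% reached 500 counts over all libraries. In the regions all 16 did, but the regions had been drawn earlier from such genes, so this is a description and no evidence. The regions, with whole-megabase bounds, were chromosome 4 up to 59 Mb, chromosome 6 up to 30 Mb and chromosome 15 from 11 to 38 Mb, and gene names are used only there. Car9 lies inside the first and Hilpda near the end of the second, where the check rests on 3 genes. The Vsir row on chromosome 10 lies outside, held 27 to 97 counts in knockout and 0 to 82 in WT libraries, and therefore does not check the genotype labels. WT 4 and WT 5 stood apart from the other 8 libraries on the first principal component of their log2 levels, at 44.3 and 48.2 against −25.4 to 5.98. The same component also set the genotypes apart, with WT 1 to 3 at −2.875 to 5.98 and the knockout libraries at −25.4 to −10.2. The genotype differences of Car9, Hilpda and the called marker, list and neighbour genes named below are also given without WT 4 and WT 5. That fit also left out the table covariate and kept knockout 4 and 5, so table and genotype were partly mixed in it. In it 78 of 10115 rows tested were called (adjusted p under 0.05), against 548 of 9736 with all libraries. Fits without 1 library called 226 to 990 rows, fewer than 548 in each but the fit without knockout 5. A call lost in these fits need therefore not be particular to its gene. The first table alone also leaves out WT 4 and WT 5, and is given beside the fit without them.

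In normal oxygen, prolyl hydroxylases mark the alpha subunits of hypoxia-inducible factor (HIF) for destruction through the von Hippel-Lindau protein. In low oxygen the subunits persist, pair with Arnt and bind short DNA motifs near their targets. The surface of the colon lies next to a lumen nearly free of oxygen, and inflamed mucosa becomes more hypoxic. Car9 encodes carbonic anhydrase IX, a membrane enzyme whose catalytic domain faces outward and turns carbon dioxide and water into bicarbonate and a proton, which helps cells with high acid output to control their pH. Hilpda encodes a small lipid droplet protein that inhibits adipose triglyceride lipase (Pnpla2) and so slows the breakdown of stored fat.

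The core of the HIF-binding motif, ACGTG or GCGTG on either strand, was looked up in the RefSeq promoter windows of both genes (GRCm38.p6, the assembly of mm10), which run from 250 bases before to 50 after each start. The matches are shown because the motif is what joins the pair to the hypoxia response. Each line is the plus strand, 5′ to 3′, with the match in capitals, and CACGT is the reverse complement of ACGTG. Both genes are transcribed from the plus strand.
Car9, chr4:43506996-43507025: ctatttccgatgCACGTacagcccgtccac
Hilpda site a, chr6:29272503-29272532: caaccgcgagccGCGTGctttccgtgactc
Hilpda site b, chr6:29272571-29272600: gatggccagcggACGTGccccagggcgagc
Hilpda site c, chr6:29272606-29272635: caggttcggtacGCGTGcgcagtctccgag

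The single Car9 match began 18 bases before the RefSeq start at 43507026, and the GENCODE row of the gene begins further upstream, at 43506966. RefSeq gives Hilpda starts at 29272488 and 29272626. The window of the downstream start held all 3 matches, which began 111, 43 and 8 bases before that start, and the window of the upstream start held site a alone, 28 bases into the transcript. No match was part of CACGTG, a motif bound by other factors. Of 32851 promoter windows of this length in the RefSeq table, 43.8% held at least 1 match and 8.93% held 3 or more. A match is therefore common, and it describes the letters of these windows, not binding in these colons.

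Car9 (ENSMUSG00000028463, chromosome 4 from 43506966 to 43513729, plus strand, 2304 exonic bases) was lower in every knockout library than in any WT library. Values are in CPM, the gene's counts per 1000000 counts of its library. WT libraries 1 to 5 had 508, 533, 437, 577 and 519 CPM. Knockout libraries 1 to 5 had 305, 301, 343, 427 and 339 CPM. The genotypes did not overlap, but knockout 4, the highest of its group, came close to WT 3, the lowest of its own. The means were 343 ± 50.7 CPM in the knockout and 515 ± 50.8 in WT (SD, n = 5 each), a WT level 1.502 times that of the knockout. Every knockout library lay below every WT library in 4.51% of the 9736 rows tested across the table, and the genotypes did not overlap in either direction in 7.22%.

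**Figure D1:**
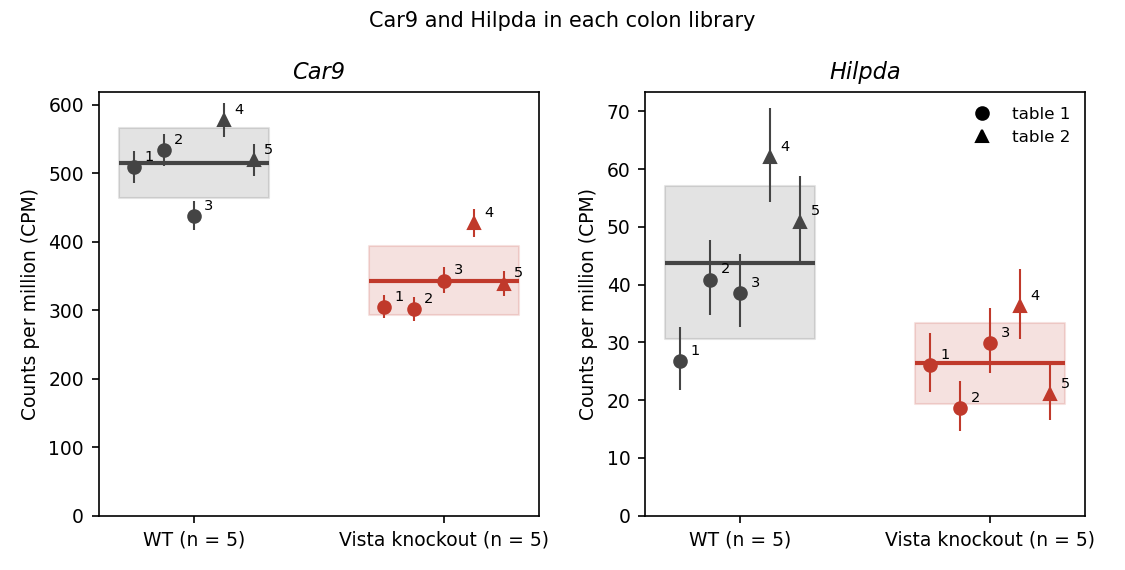
CPM of Car9 (left) and Hilpda (right) in each library, with WT in grey and Vista knockout in red. Circles are libraries of the first table and triangles of the second, numbers are replicates, vertical bars are 95% Poisson intervals of the count, and horizontal bars with shading are the mean ± SD (n = 5). All 5 Car9 values of the knockout (301 to 427 CPM) lie below all WT values (437 to 577 CPM), while for Hilpda WT 1 sits among the knockout libraries.

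Hilpda (ENSMUSG00000043421, chromosome 6 from 29272488 to 29275446, plus strand, 1103 exonic bases) was lower on average in the knockout, with overlap. WT libraries 1 to 5 had 26.8, 40.9, 38.6, 62.0 and 50.9 CPM. Knockout libraries 1 to 5 had 26.1, 18.7, 29.9, 36.3 and 20.99 CPM. WT 1 lay inside the knockout range and below knockout 3 and 4, and the highest values were those of WT 4 and WT 5. The means were 26.4 ± 7.06 CPM in the knockout and 43.8 ± 13.3 in WT (SD, n = 5 each), and the knockout was the lower in 23 of the 25 pairs of 1 library from each genotype. The row rests on 76 to 231 reads a library, so counting alone leaves a wide margin: the 95% Poisson interval, which covers counting error only, was 21.8 to 32.6 CPM in WT 1 and 54.3 to 70.6 CPM in WT 4.

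Between the genes, levels can be compared only per length. Per kilobase of exon, Car9 had 149 ± 22.0 CPM in the knockout and 224 ± 22.1 in WT, and Hilpda had 23.9 ± 6.40 and 39.7 ± 12.1 (SD, n = 5 each). Among 332 protein-coding genes of the regions with a mean of at least 5 CPM, Car9 ranked 38th and Hilpda 149th by this level. Car9 was thus a well-expressed gene of these colons, and Hilpda lay near the median gene of the regions, at 26.0 CPM per kilobase.

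A model over all 10 libraries with the table as a covariate (edgeR) put the knockout over WT difference at a log2 fold change of −0.57 ± 0.09 (SE) for Car9 and −0.68 ± 0.19 for Hilpda. Over all 9736 rows the median was 0.02. Of the pair, Car9 was among the rows called at an adjusted p under 0.05 and Hilpda was not, and 5.63% of all rows were called, 2.93% as lower in the knockout. Since the pair was chosen with this comparison known, nothing is read from that count.

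Within tables, Car9 had a log2 difference of −0.61 ± 0.10 among libraries 1 to 3 and −0.52 ± 0.18 among libraries 4 and 5. Hilpda had −0.48 ± 0.19 and −0.98 ± 0.30. The first table had 6.06% of its rows called and the second 0.856%. The knockout lay below WT in all 4 pairs of libraries of the second table for both genes, and in 9 of 9 pairs of the first for Car9 and 8 of 9 for Hilpda. Whether the difference itself varied between tables is another contrast, tested as an interaction in edgeR. For Car9 the log2 difference of the second table minus that of the first was 0.09 ± 0.19 (adjusted p 0.878), and for Hilpda −0.497 ± 0.36 (adjusted p 0.591, edgeR). Neither passed, which with these SEs leaves room for sizeable differences, and 2.05% of all rows did.

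Without WT 4 and WT 5, and without the covariate, the log2 difference was −0.51 ± 0.12 for Car9 and −0.41 ± 0.21 for Hilpda. Neither gene was then among the 78 rows called of 10115 tested. The first table alone, which also leaves out WT 4 and WT 5, set 3 libraries against 3. There Car9 was called (adjusted p 0.0110 in edgeR) and Hilpda was not (0.154). The size of the Hilpda difference thus rests in part on WT 4 and WT 5, since it was −0.68 with them.

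**Figure D2:**
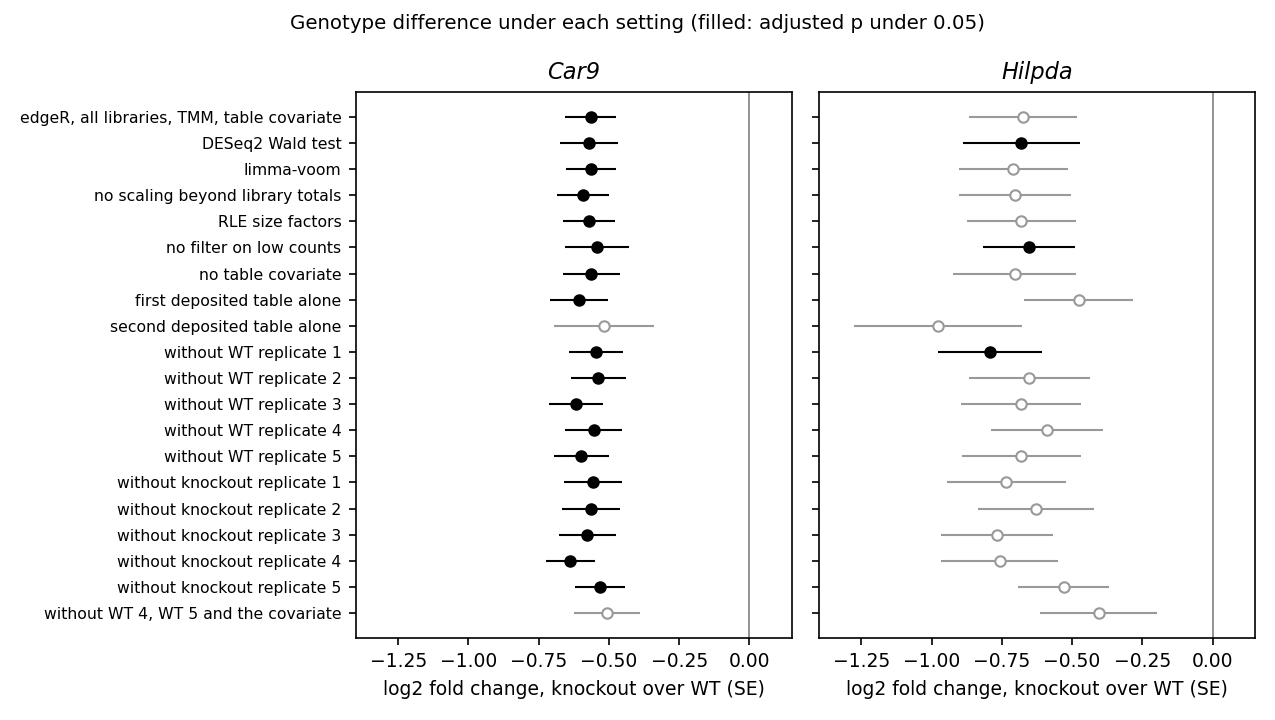
Log2 fold change of knockout over WT (horizontal axis, error bars SE) for Car9 and Hilpda under each setting (vertical axis). Filled points had an adjusted p under 0.05 over all rows. Car9 stays between −0.64 and −0.51 and Hilpda between −0.98 and −0.41, all below 0.

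Bulk colon RNA cannot tell apart fewer cells of a type and less RNA per cell. Of 10 epithelial markers, 5 lie in the regions (Cdh17, Esrp1, Klf4, Grhl2 and Cftr), and their summed level was 7027 to 8060 CPM in the knockout and 7134 to 9004 in WT, ranges that overlap. Cdh17, an intestinal cadherin of the epithelium, had a log2 difference of 0.04 ± 0.09 (SE), with an adjusted p of 0.839 in edgeR. Klf4 had 0.21 ± 0.17, Esrp1 −0.19 ± 0.08 and Grhl2 −0.15 ± 0.13, which did not pass either. Cftr, an epithelial channel gene, was called lower (−0.69 ± 0.16, adjusted p 0.0310 in edgeR), so the sum hides 1 marker called in the direction of Car9. Esrp1, though not called, lay in that direction without overlap, at 1078 to 1211 CPM in knockout and 1232 to 1410 in WT libraries. Of all rows tested, 7.22% did not overlap in either direction.

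Stromal and muscle markers in the regions (4 of 7, among them Tpm2) summed to 1278 to 2800 CPM in the knockout and 1712 to 2879 in WT. B cell markers (3 of 5) summed to 118 to 252 CPM in the knockout and 25.2 to 291 in WT, where the low values, 30.1 and 25.2, were those of WT 4 and WT 5. Over all libraries these ranges overlap between genotypes. In the second table, though, the B cell sums were 252 and 161 CPM in knockout 4 and 5. Pax5, Cd72 and Bach2 had log2 differences of −0.85, −0.70 and −0.77 among libraries 1 to 3. Among libraries 4 and 5 they had 3.73, 2.37 and 2.33. Their interactions passed in edgeR (adjusted p 0.00377, 0.00567 and 0.00317), where 2.05% of all rows did.

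Goblet cell markers (2 of 5) did not share 1 pattern. Spink4 had 1347 to 3634 CPM in WT and 689.5 to 2854 in knockout libraries (log2 −0.11 ± 0.25, adjusted p 0.822 in edgeR). Galnt12, a mucin-type glycosyltransferase gene, had 448 to 647 CPM in WT and 299 to 409 CPM in knockout libraries. It did not overlap between genotypes and was called lower (−0.59 ± 0.12, adjusted p 0.0227 in edgeR), by about as much as Car9. The call was lost without WT 4 (0.0597) or WT 5 (0.0574), and without both and the covariate Galnt12 had −0.45 (0.0975 in edgeR). In the first table alone it had −0.34 and was not called (0.0786 in edgeR).

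Markers of enteric neurons (2 of 4) moved in opposite directions. Tac1, which encodes the precursor of substance P, was called higher (1.498 ± 0.25, adjusted p 0.00826 in edgeR), and Penk, the proenkephalin gene, lower (−1.02 ± 0.24, adjusted p 0.0308). Without WT 4, WT 5 and the covariate neither was called, at 1.46 (0.158 in edgeR) and −1.13 (0.0635). In the first table alone both were called, Tac1 at 1.98 (0.000145 in edgeR) and Penk at −1.25 (0.0287). The Penk call was also lost without WT 1, 2 or 4 or knockout 1, with 0.0671 to 0.0775. Myeloid markers all lie outside the regions, so the myeloid share of these colons, a cell type in which Hilpda is also induced, could not be read. The part of cell composition in the Car9 and Hilpda differences was not tested.

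Whether Car9 and Hilpda vary together can be asked only within genotypes, since both were chosen as lower in the knockout and a relation over all libraries is built in by that choice. After the mean of each genotype within each table was removed from log2(CPM + 0.5), Pearson's r over the 10 libraries was 0.587 and Spearman's rho was 0.685. Permuting libraries only inside those 4 groups gave exact two-sided p values of 0.243 and 0.174 over 144 arrangements, which can go no lower than 0.00694. A relation within groups was therefore not shown. As a description, with the genotype difference left in, r was 0.825 and rho 0.903 over all 10 libraries. That r was 0.756 without knockout 1 and 2, the libraries farthest from the Car9 median, and 0.717 without WT 4 and WT 5. Among libraries 1 to 3 of both genotypes it was 0.696. The second table has too few libraries for a value.

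**Figure D3:**
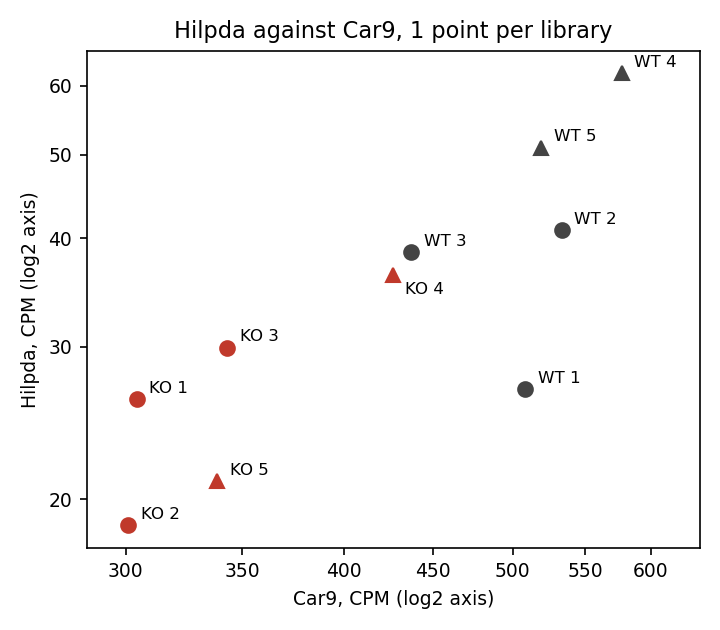
Hilpda CPM (vertical, log2 axis) against Car9 CPM (horizontal, log2 axis), 1 point per library, WT in grey and knockout (KO) in red, circles for the first table and triangles for the second. WT 4 is highest and knockout 2 lowest on both axes, and WT 1 lies below the trend of the others.

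The balance of the genes was not the same in every library. WT 1 had the fewest Hilpda reads per 100 Car9 reads, 5.27, and WT 4 the most, 10.7. The other 8 libraries lay between 6.197 and 9.81. Without WT 1, r was 0.933.

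Car9 does not stand alone on its stretch of chromosome 4. Its upstream end lies across the antisense gene Gm12454 (minus strand, 43504428 to 43508747), which shares 1782 genomic bases with it. How many of them are exonic in both genes was not counted. Whether the counting used strand was not given in the sources used here, so reads in the shared bases cannot be assigned to either gene with certainty. Gm12454 had 65.7, 62.7, 68.2, 66.6 and 59.1 CPM in WT 1 to 5 and 36.3, 41.0, 44.4, 36.8 and 57.5 CPM in knockout 1 to 5. The genotypes did not overlap there either, and the log2 difference was −0.55 ± 0.13 (SE), with an adjusted p of 0.0305 in edgeR that ran from 0.0574 to 0.0767 when WT 1, 2, 3 or 4 or knockout 1, 2 or 3 was left out. No annotated gene overlaps Hilpda.

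Within 100 kb of Car9, 12 other rows passed the filter on low counts, and 3 of them were called, all lower in the knockout, where 9.05% of all rows tested inside the regions were called in either direction. The Gm12454 row shares genomic bases with Car9, so it cannot be taken as independent of Car9. Besides Gm12454 these were Ccdc107, a coiled-coil protein gene (log2 −0.62 ± 0.12, adjusted p 0.0177), and Gba2, a glucosylceramidase gene (−0.46 ± 0.09, adjusted p 0.0206, edgeR). The Gba2 call was lost without WT 2 (adjusted p 0.0577 in edgeR), WT 4 (0.0607), WT 5 (0.0516) or knockout 1 (0.0531). Without both WT 4 and WT 5, and without the covariate, none of the 3 was called, where 78 of 10115 rows tested were. The log2 difference was then −0.59 for Gm12454 (adjusted p 0.0779 in edgeR), no smaller in size than with all libraries, −0.41 for Ccdc107 (0.128) and −0.33 for Gba2 (0.185). In the first table alone Gm12454 was called, at −0.66 (0.0146 in edgeR). Ccdc107 had −0.49 (0.0507) and Gba2 −0.44 (0.0704) there, and neither was called. Arhgef39, next upstream of Gm12454, had −0.36 ± 0.10 and an adjusted p of 0.0609. The gene that ends closest to Car9 on its far side, the tropomyosin gene Tpm2, had −0.41 ± 0.24 and 0.329, and Tln1, the talin gene beyond it, 0.14 ± 0.07 and 0.241. So the rows beside Car9 did not all share its direction. Gba2 overlaps Rgp1 and Creb3 on the opposite strand, and Tln1 overlaps Creb3. Reads in those shared bases carry the same limit, and these rows cannot be taken as independent either. Ccdc107 overlaps Rmrp, whose rows held no counts.

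**Figure D4:**
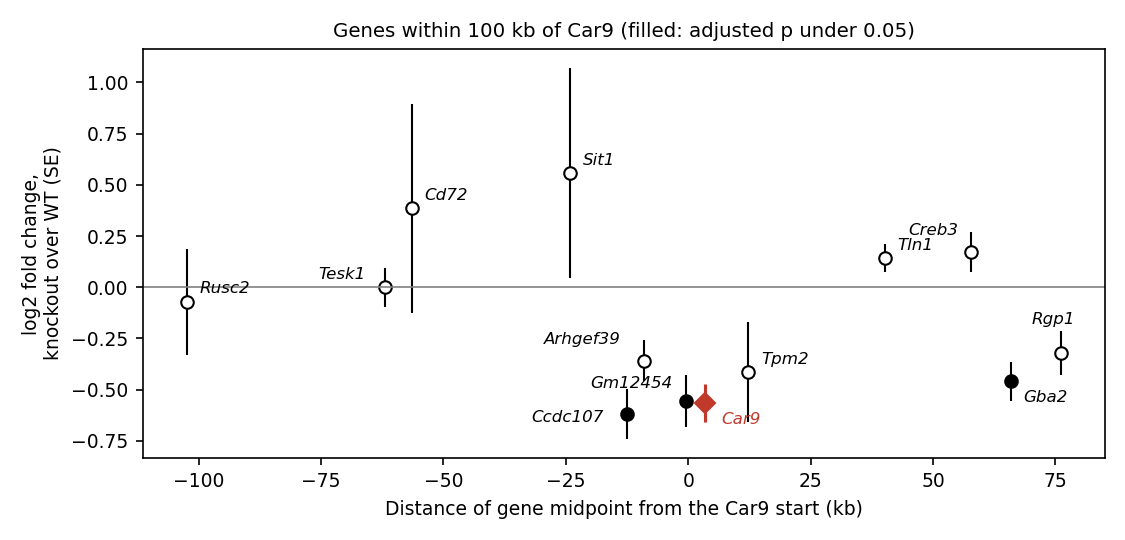
Log2 fold change of knockout over WT (vertical axis, error bars SE) of the tested rows within 100 kb of Car9, placed by the distance of the gene's midpoint from the Car9 start (horizontal axis, kb). Filled points had an adjusted p under 0.05, and the red diamond is Car9. Ccdc107, Gm12454 and Gba2 are filled and lie below 0, while Tln1 and Creb3 lie above it.

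Around Hilpda only 2 other rows within 100 kb were tested. Impdh1, which encodes an enzyme of guanine nucleotide synthesis, had a log2 difference of −0.32 ± 0.17 (adjusted p 0.279 in edgeR) and 0.01 in the first table alone. Calu, a gene of the secretory pathway, had 0.18 ± 0.09 (adjusted p 0.225).

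Most of the hypoxia response lies outside the regions. Of 100 symbols in a list of genes known to be induced by low oxygen, 10 had a row inside, all 10 passed the filter, and 1 was called higher and 2 lower. Their median log2 difference was −0.16, and −0.07 without Car9 and Hilpda, beside 0.02 over all rows tested and −0.04 over the 409 tested inside the regions, where 9.05% were called. The lower calls include Car9, and nothing is read from its own.

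The higher call was Met, the hepatocyte growth factor receptor gene, with 0.42 ± 0.11 and an adjusted p of 0.0416 in edgeR. It was lost without any 1 of WT 2, 3, 4 or 5 or knockout 1, 2 or 4, with adjusted p values of 0.0686 to 0.108, and without WT 4, WT 5 and the covariate it had 0.29 (0.220 in edgeR). In the first table alone Met had 0.33 and was not called (0.106 in edgeR). The remaining 7, with Hilpda among them, did not pass. Rragd, a GTPase gene of amino acid sensing, had −0.37 ± 0.28, Sdc2, a syndecan gene, −0.17 ± 0.17, and Grhpr, a glyoxylate reductase gene, −0.16 ± 0.15. Pnrc1 had 0.02 ± 0.09, the caveolin gene Cav1 0.05 ± 0.30 and Tes 0.08 ± 0.08. Cav1 had −0.51 among libraries 1 to 3 and 0.89 among libraries 4 and 5, and the sign of Pnrc1 turned with the scaling, to −0.01 with library totals alone. The set did not move as one.

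Of 22 symbols listed for regulators of the HIF pathway, 1 lies in the regions. It is Creb3, a membrane-bound transcription factor gene, with 0.17 ± 0.10 and an adjusted p of 0.305 in edgeR. Whether Creb3 acts on HIF was not tested, so its value is not read as a measure of the pathway. The subunit genes Hif1a, Epas1 and Arnt, the hydroxylase genes and Vhl lie outside and were not analysed here.

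**Figure D5:**
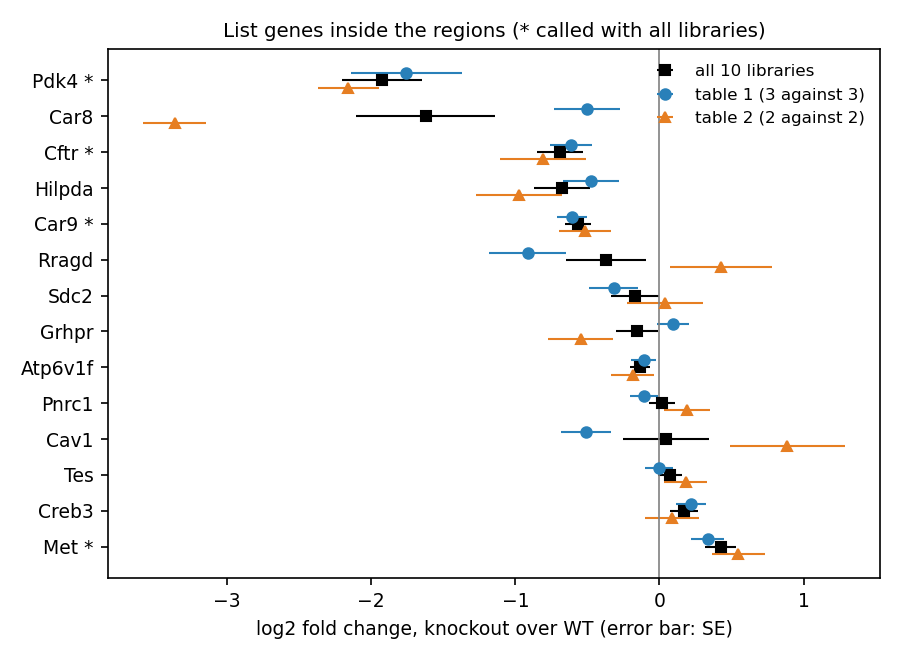
Log2 fold change of knockout over WT (horizontal axis, error bars SE) of the list genes named in the text, with all 10 libraries (black squares), the first table (blue circles) and the second (orange triangles). An asterisk marks an adjusted p under 0.05 with all libraries. Car9 has nearly the same value in both tables (−0.61 and −0.52), while Car8 (−0.505 and −3.37) and Cav1 (−0.51 and 0.89) do not.

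Among carbonic anhydrases, 2 of 16 lie in the regions, Car9 and Car8. Car8 encodes a related protein that lacks the catalytic zinc site. It had 42.2, 59.9 and 69.5 CPM in WT 1 to 3, 225 and 309 CPM in WT 4 and 5, and 32.3, 30.2, 56.1, 25.2 and 26.5 CPM in knockout 1 to 5. The pooled log2 difference of −1.62 ± 0.49 did not pass (adjusted p 0.0763 in edgeR). The log2 difference was −0.505 among libraries 1 to 3 and −3.37 among libraries 4 and 5, an interaction of −2.86 ± 0.37 with an adjusted p of 0.00423. Car8 thus followed WT 4 and WT 5, and Car9, at −0.61 and −0.52 in the same tables, did not.

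Of 25 genes of acid and bicarbonate transport, 4 lie inside and 2 were tested. Cftr, the chloride and bicarbonate channel gene, was called lower (−0.69 ± 0.16, adjusted p 0.0310 in edgeR), and the call was lost without WT 1, 2, 4 or 5 or knockout 1 or 2, with 0.0523 to 0.0831. Without WT 4, WT 5 and the covariate Cftr had −0.52 (adjusted p 0.168 in edgeR). In the first table alone it had −0.62 and was called (0.0363 in edgeR). Atp6v1f, a subunit of the proton-pumping vacuolar ATPase, had −0.14 ± 0.07 and an adjusted p of 0.248. Of 36 genes of lipid droplets and triglyceride turnover, Hilpda and Pdk4 lie inside. Pdk4, whose kinase turns cells from glucose to fat as fuel, was lower by −1.93 ± 0.28 (adjusted p 0.00526 in edgeR), and without WT 4, WT 5 and the covariate it had −1.47 (adjusted p 0.0679). Pdk4 was called in each table alone, at −1.76 in the first (0.0294 in edgeR) and −2.16 in the second (0.0256). Pnpla2, the target of Hilpda, lies outside the regions.

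The genes whose levels followed Car9 most closely were found by Pearson's r of log2(CPM + 0.5) over the 10 libraries, among the other 331 protein-coding genes of the regions with a mean of at least 5 CPM. All share the same libraries and totals, and r includes the genotype difference. The highest was Pon2, a paraoxonase gene (0.959), followed by Pdk4 (0.928), the metalloprotease gene Adamts12 (0.916), the DNA repair gene Xpa (0.909) and Atp6v1f (0.908). Hilpda came 19th. The median over the 331 genes was 0.13. The most opposite were Unc13b, a gene of vesicle priming (−0.92), the galactosyltransferase gene B4galt1 (−0.88) and Dnaic1, a ciliary dynein gene (−0.88). After removal of the mean of each genotype within each table, r with Car9 was −0.81 for Unc13b and 0.800 for Pon2, and it was nearer 0 for the others: 0.655 for Pdk4, 0.599 for Atp6v1f, 0.510 for Xpa, 0.467 for Adamts12, −0.35 for B4galt1 and −0.25 for Dnaic1. These genes were picked as the extremes of r with the means left in, so their r could fall by that choice alone. How much of the ranking goes with the genotype and table means cannot be told from these values.

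For Hilpda the closest were Laptm4b, a lysosomal membrane protein gene (0.902), Adamts12 (0.901), Ndufaf6, an assembly factor of respiratory complex I (0.894), Zfp622 (0.891) and Pon2 (0.870). Car9 came 12th. The most opposite were B4galt1 (−0.89), Unc13b (−0.86) and the fucosyltransferase gene Fut9 (−0.85). After removal of the group means r with Hilpda was 0.939 for Ndufaf6, 0.854 for Adamts12, −0.88 for B4galt1, −0.80 for Unc13b, 0.784 for Pon2, 0.762 for Laptm4b, 0.585 for Zfp622 and −0.53 for Fut9. Ndufaf6 had a log2 genotype difference of −0.14 ± 0.13, which did not pass. Pon2 and Adamts12 were among the closest 5, and B4galt1 and Unc13b among the most opposite 3, for both Car9 and Hilpda.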

How the data were processed

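The authors deposited 2 tables of raw read counts, with a row for each Ensembl gene identifier. Per the submitters' processing notes, HISAT2 2.2.1 and featureCounts 2.0.1 made the first, naming the human build GRCh38, and HISAT2 and featureCounts 2.0.1 made the second, on mm10. The annotation used, and whether strand was, is not given in the sources used here. GENCODE M21 named 52135 of 55416 identifiers. One gene counted in the hypoxia list is not reported here by name or value. The members and gene lists, the regions and the rule for named genes (both members, list genes and neighbours within 100 kb inside the regions, and the 5 highest and 3 lowest correlations with each member) were chosen with earlier results of these data known.

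Tests on the counts used edgeR 4.0.16 under R 4.3.3 (TMM scaling, expression filter, quasi-likelihood, table covariate, Benjamini-Hochberg over all rows tested). limma 3.58.1 (voom), DESeq2 1.42.0 and other settings were alternatives. The fit was tested on simulated counts with known changes. It recovered 40.3% of planted 1.5-fold changes, 89.6% of 2-fold and 100% of 4-fold ones, and 10 of its 163 calls were false. Changes near 1.5-fold were thus often missed. Every simulated row was given the same spread beyond sampling noise, unlike real rows. The closest pair of libraries, WT 2 and WT 3, had a mean chi-square of 4.06 per row, so no pair agreed within sampling noise.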

Additional observations from a re-analysis of the deposited data

Results flagged for a closer look

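The genotype difference of Car8 changed between the deposited tables, with an adjusted p of 0.00423 for the interaction in edgeR, and WT 4 and WT 5 held its high values. Those of the B cell markers Pax5, Cd72 and Bach2 changed too (adjusted p 0.00377, 0.00567 and 0.00317 in edgeR). WT 4 and WT 5 held their low values. Single libraries were also compared with the rest of their genotype in 84 groups of 5, of which 4.2 would stand out by chance at 1 in 20, and 3 did. The B cell markers were not among these groups. Car8 was at 56.1 CPM in knockout 3 and at 25.2 to 32.3 in the other knockout libraries. Atp6v1f was at 393 CPM in WT 4 and at 350.2 to 359 in the other WT libraries. Klf4 was at 1720 CPM in knockout 4 and at 2886 to 3105 in the other knockout libraries.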

How the results depend on the processing

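No paired analysis was possible because replicate numbers follow accession order here and tie no knockout library to a WT one. The genotype difference chose the pair, so the sides of the threshold given for it are descriptions. Car9 was past it in the first table alone (−0.61). Car9 fell short of it in the second table alone (−0.52) and without WT 4, WT 5 and the covariate (−0.51). Hilpda, short of it with all libraries, was past it with DESeq2 (−0.68), with no filter on low counts (−0.65) and without WT 1 (−0.79), and ran from −0.79 to −0.53 as single libraries were left out. The Car9 interaction ran from −0.078 (without knockout 4) to 0.22. The correlation of the pair was 0.587 within groups and, in alternatives added after the data were seen, 0.696 in the first table and 0.717 without WT 4 and WT 5. Called rows numbered 848 with DESeq2, 1260 with no filter, 85 in the second table, 78 without WT 4, WT 5 and the covariate, and 226 to 990 as single libraries were left out, against 548. In the first table alone, Cav1 turned to −0.51, Tes to −0.0033, Grhpr to 0.096, Pnrc1 to −0.11, Grhl2 to 0.037, Impdh1 to 0.0126 and Ndufaf6 to 0.0205. The B cell markers Pax5, Cd72 and Bach2 turned there too, to −0.85, −0.70 and −0.77. In the second, Rragd turned to 0.43, Spink4 to 0.024 and Sdc2 to 0.038. Without WT 4, WT 5 and the covariate, Cav1 was −0.17, Grhpr 0.036, Pnrc1 −0.12, Impdh1 0.0125 and Ndufaf6 0.049. Pnrc1 was −0.013 with library totals alone. With single libraries left out, Cav1 ran from −0.26 to 0.23, Spink4 from −0.44 to 0.053, Pnrc1 from −0.049 to 0.060 and Cdh17 from −0.027 to 0.070. The cause of these changes was not tested. Leaving out a second-table library leaves 1 library in an arm of the interaction, which is assumed to vary like the others.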
